A study of Ovis aries with 6 samples.

Results

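The IL17 and IL22 axis was followed through the rumen wall of lambs by 9 genes, out of 26741 sheep genes with a row in the count matrices. The members were 4 lymphocyte cytokine genes (IL17A, IL17F, IL22 and IL26), IL23R, the receptor genes IL17RA, IL17RC and IL22RA1, and the chemokine gene CCL20. They were chosen by name and found through their NCBI gene IDs, and each of the 9 had exactly 1 row. The single-nucleus libraries came from epithelium of the ventral sac of the rumen of 6 male lambs, 3 labelled MGHS and 3 labelled MGNS. The labels do not spell out these group names, and the series title speaks of supplementary feeding of grazing sheep. Neither group carries an allele or agent in the labels beyond its group name, and ages are not given there. The members were chosen with results of these data in view, so their levels by cell class and by group are a description, and nothing is supported by their selection.

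IL17A and IL17F are cytokines of type 17 lymphocytes that signal through a receptor made of IL17RA and IL17RC. IL22 and IL26 are cytokines of the IL10 family, and IL22RA1 is the ligand-binding chain of the IL22 receptor that restricts the response to epithelium and other non-immune cells. IL23R is the receptor chain through which IL23 from myeloid cells maintains type 17 lymphocytes, and CCL20 is an epithelial chemokine that IL17A induces and that draws in cells carrying CCR6. In stratified epithelium the axis is known for antimicrobial defence and for the pace of keratinocyte renewal.

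After filtering, 41822 nuclei remained of 67553 barcodes. The MGHS libraries kept 5407, 6376 and 10201 nuclei, and the MGNS libraries kept 4830, 8097 and 6911. Median depth per nucleus was 3123 to 4217 unique molecular identifiers (UMIs, 1 per captured RNA molecule) in MGHS libraries and 3268 to 4764.5 in MGNS libraries. The nuclei fell into 24 clusters, which were named only from marker genes. Keratinocytes fell into basal-like, cycling, spinous-like and granular-like nuclei, lymphocytes were mostly T or NK-like, and 5 clusters stayed unnamed. Stroma here means fibroblast-like with smooth muscle or pericyte-like nuclei, and all keratinocyte-like nuclei join the 4 keratinocyte classes. MGHS 3 stood apart from the other libraries, because 26.3% of its nuclei belonged to unnamed cluster 0, of a median 497 UMIs, against 2.94% to 6.03% in the other 5. Libraries shared 5 to 22 retained barcodes per pair. Levels are given as CPM, the UMIs of a gene per 1000000 UMIs summed over the nuclei of a class in an animal, with mean ± SD over 3 animals per group.

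IL17A, IL17F, IL22 and IL26 were read mostly in T or NK-like nuclei, and among these mostly in a single cluster. T or NK-like nuclei held 73.4% to 93.1% of the IL17A UMIs of an animal, 64.6% to 92.5% of IL17F, 80.7% to 92.9% of IL22 and 58.8% to 86% of IL26. T or NK-like nuclei were formed by clusters 3, 4 and 8, and cluster 4 alone held 70.4% to 92.4% of the IL17A UMIs. Over the 6 animals IL17A averaged 138 ± 86.6 CPM in cluster 4, 0.70 ± 0.68 CPM in cluster 3 and 1.17 ± 0.99 CPM in cluster 8. IL26 was less confined, with 430 ± 72.9 CPM in cluster 4, 23.2 ± 9.41 CPM in cluster 3 and 14.1 ± 7.20 CPM in cluster 8. IL17F, IL22, IL26 and IL17A are among the genes that define cluster 4, and clusters 3 and 4 joined when the members and list genes were left out of the clustering, so these values describe where the UMIs lie.

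Among these 3 clusters, cluster 4 also had the highest levels of several genes known from type 17 cells. CCR6, the receptor of CCL20, averaged 108 CPM in cluster 4, 47.2 CPM in cluster 3 and 12.1 CPM in cluster 8. AHR, a ligand-sensing factor needed for IL22, averaged 715 CPM in cluster 4 against 258 CPM in cluster 3 and 213 CPM in cluster 8. IL1R1, the IL1 receptor, averaged 391, 115 and 26.0 CPM in clusters 4, 3 and 8. CD4 averaged 288 CPM in cluster 4 and CD8A 1.90 CPM, and the summed T or NK markers of cluster 4 reached 74.0% to 94.5% of their level in cluster 3. No finer lymphocyte name was given to the cluster from these values.

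**Figure D1:**
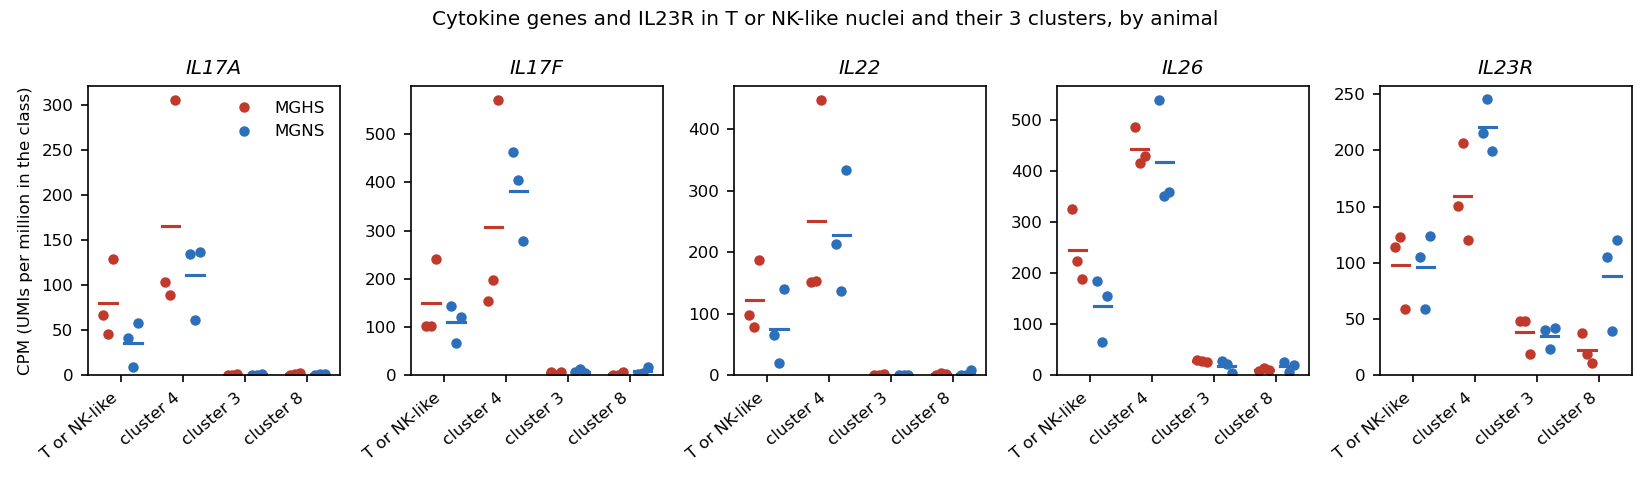
CPM of IL17A, IL17F, IL22, IL26 and IL23R (y axes, separate scales from 0) in all T or NK-like nuclei and in their clusters 4, 3 and 8 (x axis), with 1 point per animal, MGHS left and MGNS right, and a bar at each group mean. The 4 cytokine genes stand near 0 outside cluster 4, while IL23R does not.

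The 4 cytokine genes were read together in part of the nuclei that held any of them. In cluster 4, 1859 of 2960 nuclei (62.8%) held a UMI of at least 1 of the 4, namely 976 nuclei with 1 of them, 577 with 2, 230 with 3 and 76 with all 4. In cluster 3 the figure was 183 of 3110 nuclei (5.88%) and in cluster 8 it was 54 of 1813 (2.98%). Of the 290 T or NK-like nuclei with IL17A, 218 also held IL26, 185 IL17F, 119 IL22 and 109 IL23R. IL26 was present in 57.4% to 88.1% of the IL17A nuclei of an animal and in 8.10% to 37.1% of the nuclei without IL17A. The nuclei without IL17A include clusters 3 and 8, which held few of the 4 genes, so this contrast also reflects membership of cluster 4. Such pairwise shares were not counted within cluster 4 alone. Median depth was 2966.5 UMIs in the IL17A nuclei and 2572 UMIs in the others. After each nucleus had been thinned to 1000 UMIs, 151 nuclei kept IL17A, of which 82 kept IL26.

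Depth and stray RNA bear on such counts. Without thinning, 9.36% of cluster 4 nuclei held IL17A, 27.1% IL17F, 18.3% IL22 and 50.8% IL26, at a median depth of 2421 UMIs. After thinning, which left out 273 shallower nuclei (116 MGHS and 157 MGNS), the shares were 5.51%, 15.6%, 11.9% and 31.3%. Granular-like nuclei, which should lack these cytokines, held IL17A in 0.62% and IL26 in 2.03% of nuclei at a median of 9005 UMIs, and in 0.05% and 0.37% after thinning. The IL17A level of keratinocyte-like nuclei was 0.33% to 3.03% of that of T or NK-like nuclei in the same animal, and the level of IL26 was 0.90% to 4.39%. The 20 measured T or NK markers, none at 0 in all animals, stood at 1.71% to 4.68% of their T or NK-like level there, and their sum was 244 to 283 CPM in MGHS keratinocytes and 412 to 655 CPM in MGNS keratinocytes. In MGHS 1 the IL17A share of 3.03% exceeded the marker share of 1.90%, and in the other 5 animals IL17A was below it. IL17F at 0.64% to 2.63%, IL22 at 0.58% to 1.47% and IL26 were below the marker share in all 6 animals.

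Between the groups, the cytokine levels of T or NK-like nuclei overlapped for 3 genes and stood apart for IL26. IL17A had 67.2, 46.2 and 128 CPM in MGHS lambs, against 41.5, 9.40 and 57.8 CPM in MGNS lambs. The groups overlapped, with MGHS 3 highest and MGNS 2 lowest. These levels rest on 122 to 354 IL17A UMIs per MGHS animal and 61 to 214 per MGNS animal. The means were 80.6 ± 42.8 CPM in MGHS and 36.2 ± 24.6 CPM in MGNS, with an edgeR log2 fold change of 1.13 ± 0.68 (SE) and an adjusted p of 0.757.

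IL22 had 98.6, 79.1 and 188 CPM in MGHS lambs, against 65.7, 20.3 and 140 CPM in MGNS lambs. MGHS 3 and MGNS 3 were the high animals of their groups, MGNS 2 was the lowest of all, and the groups overlapped (edgeR log2 fold change 0.67 ± 0.70, adjusted p = 0.875). IL17F had 103, 102 and 242 CPM in MGHS lambs, against 144, 66.4 and 121 CPM in MGNS lambs. Its edgeR log2 fold change was 0.38 ± 0.40 with an adjusted p of 0.873, and without MGHS 3 the value changed sign to -0.12 (adjusted p = 0.980).

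IL26, a gene that mice lack, had 325, 223 and 189 CPM in MGHS lambs, against 183, 65.1 and 155 CPM in MGNS lambs. All 3 MGHS lambs lay above the MGNS lambs, as did the groups of 7.32% of the genes tested in this class. After scaling by the trimmed mean of M-values (TMM), which edgeR uses in place of total UMIs, the lowest MGHS value was 181 CPM against the highest MGNS value of 188 CPM, so the groups overlapped. The edgeR log2 fold change was 0.84 ± 0.39, with an adjusted p of 0.668.

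The make-up of the T or NK-like class differed beside these values. Cluster 4 made up 66.5%, 52.3% and 37.6% of T or NK-like nuclei in MGHS lambs and 31.8%, 14.3% and 44.9% in MGNS lambs. MGNS 2, lowest for all 4 cytokine genes, had the smallest share of cluster 4. Within cluster 4 all 4 cytokine genes overlapped between the groups, with IL17A at 103, 89.2 and 306 CPM in MGHS lambs and 135, 61.4 and 137 CPM in MGNS lambs. IL26 in cluster 4 had 486, 415 and 428 CPM in MGHS lambs and 539, 350 and 359 CPM in MGNS lambs. The part of this make-up in the T or NK-like values was not tested. Without MGHS 3 the log2 fold changes in T or NK-like nuclei were 0.67 for IL17A, 0.25 for IL22 and 1.02 for IL26. Without MGNS 2 they were 0.65 for IL17A, 0.20 for IL22 and 0.50 for IL26, and without MGNS 3 that of IL22 was 1.45.

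Over all retained nuclei, in which fewer cells of a type and less RNA per cell cannot be told apart, IL17A had 8.55, 4.06 and 9.95 CPM in MGHS lambs and 8.53, 1.79 and 6.35 CPM in MGNS lambs. IL26 had 39.3, 21.3 and 17.7 CPM in MGHS lambs and 43.4, 15.8 and 19.6 CPM in MGNS lambs. Both genes overlapped, and for IL26 the highest animal was then an MGNS lamb. T or NK-like nuclei were 20.5%, 16.3% and 9.07% of retained nuclei in MGHS lambs and 27.7%, 26.4% and 19.3% in MGNS lambs.

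IL23R, the receptor chain that answers IL23, was spread more widely over lymphocytes than the cytokine genes. It averaged 190 ± 45.9 CPM in cluster 4, 150 ± 69.9 CPM in unnamed cluster 20, 55.7 ± 46.0 CPM in cluster 8 and 36.9 ± 12.9 CPM in cluster 3 over the 6 animals. The levels of clusters 4 and 20 did not differ beyond their spread. Cluster 20 held 0.91% to 20.2% of the IL23R UMIs of an animal, and it also had 46.0 ± 42.6 CPM of IL17F but 9.92 ± 10.1 CPM of IL17A. In this cluster 13 T or NK markers were at least 2-fold above the other nuclei. It made up 0.55%, 0.99% and 0.57% of retained nuclei in MGHS lambs and 2.86%, 3.04% and 3.08% in MGNS lambs. The part of these shares in the IL23R values over all nuclei was not tested.

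In T or NK-like nuclei IL23R had 114, 123 and 58.8 CPM in MGHS lambs, against 106, 59.0 and 123 CPM in MGNS lambs. High and low animals occurred in both groups (edgeR log2 fold change 0.02 ± 0.35, adjusted p = 0.994), and the sign of the fold change turned when single animals were left out (-0.24 to 0.30). In cluster 8 alone the levels were 37.8, 19.1 and 11.3 CPM in MGHS lambs and 106, 39.8 and 121 CPM in MGNS lambs. The groups did not overlap there, as for 6.38% of genes with at least 10 UMIs in the cluster. Over all nuclei IL23R had 14.4, 13.8 and 6.65 CPM in MGHS lambs, against 27.4, 16.9 and 18.4 CPM in MGNS lambs. All MGHS lambs lay below, before and after TMM scaling, as did the groups of 22.3% of all genes tested there before scaling and 15.8% after it (edgeR log2 fold change -0.73 ± 0.34, adjusted p = 0.278). Without MGHS 3 that fold change was -0.39. In stroma IL23R was at 2.48 to 2.94 CPM in MGHS lambs and 3.36 to 7 CPM in MGNS lambs, with all MGHS lambs below, as for 11.1% of genes tested there. The T or NK markers in stroma summed to 238 to 461 CPM in MGHS lambs and 524 to 1084 CPM in MGNS lambs, also without overlap, and their part in this was not tested.

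Genes of cytokines known to drive type 17 cells were read in other classes, with wide spread between animals. IL23A, the specific subunit of IL23, averaged 8.81 ± 16.3 CPM in macrophage or dendritic-like nuclei, with 0, 2.11 and 0.47 CPM in MGHS lambs and 41.5, 0.85 and 7.98 CPM in MGNS lambs. The single lamb MGNS 1 made most of that mean. IL1B, another driver, averaged 116 ± 62.2 CPM in unnamed cluster 13 and 44.1 ± 44.3 CPM in macrophage or dendritic-like nuclei. In macrophage or dendritic-like nuclei IL1B had 15.7, 6.85 and 26.1 CPM in MGHS lambs and 65.7, 25.8 and 125 CPM in MGNS lambs, overlapping by the values of MGHS 3 and MGNS 2. IL22RA2, which encodes a soluble decoy that binds IL22, averaged 101 ± 43.1 CPM in macrophage or dendritic-like nuclei and 198 ± 62.5 CPM in cluster 14, 1 of its 2 clusters.

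On the receiving side the 3 receptor genes had different maps. IL17RA, the shared chain of the IL17 receptors, was read in every class, from 18.1 ± 9.11 CPM in B or plasma-like nuclei to 49.3 ± 28.5 CPM in fibroblast-like nuclei and 48.4 ± 13.7 CPM in T or NK-like nuclei. Spinous-like nuclei with 38.0 ± 9.18 CPM, granular-like with 34.7 ± 5.25 CPM and basal-like with 31.8 ± 10.8 CPM followed, and these neighbours did not differ beyond their spread. Keratinocytes held 47.2% to 62.0% of the IL17RA UMIs of an animal.

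IL17RC, the partner chain for IL17A and IL17F, was highest in spinous-like nuclei at 52.0 ± 10.3 CPM. Smooth muscle or pericyte-like nuclei followed with 28.9 ± 5.30 CPM and basal-like nuclei with 27.4 ± 6.64 CPM, whose ranges overlapped. Granular-like nuclei had 16.1 ± 6.18 CPM and T or NK-like nuclei 8.38 ± 1.88 CPM. Thus spinous-like nuclei carried more IL17RC than granular-like nuclei in each animal, from 40.05 to 67.7 CPM against 8.85 to 26.3 CPM, while IL17RA was near even between these layers.

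IL22RA1 was read in the upper layers of the epithelium and next to nowhere else. Granular-like nuclei averaged 187 ± 51.8 CPM and spinous-like nuclei 70.1 ± 18.2 CPM, with no overlap between the classes, against 1.87 ± 0.69 CPM in basal-like and 1.26 ± 1.11 CPM in cycling keratinocyte-like nuclei. Keratinocytes held 90.9% to 97.2% of the IL22RA1 UMIs of an animal. A UMI of IL22RA1 was found in 62.0% of granular-like nuclei and 34.6% of spinous-like nuclei, at median depths of 9005 and 10103 UMIs, but in 1.43% of basal-like nuclei at 7364.5 UMIs. After thinning to 1000 UMIs the shares were 14.2%, 6.26% and 0.25%, with 84, 70 and 350 nuclei left out. T or NK-like nuclei, which should lack the gene, held it in 0.61% of nuclei at a median of 2585 UMIs and in 0.23% after thinning, so the basal-like share was near background. IL10RB, the partner chain in the IL22 receptor, was read in both compartments, with 17 ± 3.71 CPM in all keratinocyte-like nuclei and 56.4 ± 6.93 CPM in T or NK-like nuclei, but only 5.83 ± 2.42 CPM in granular-like nuclei.

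**Figure D2:**
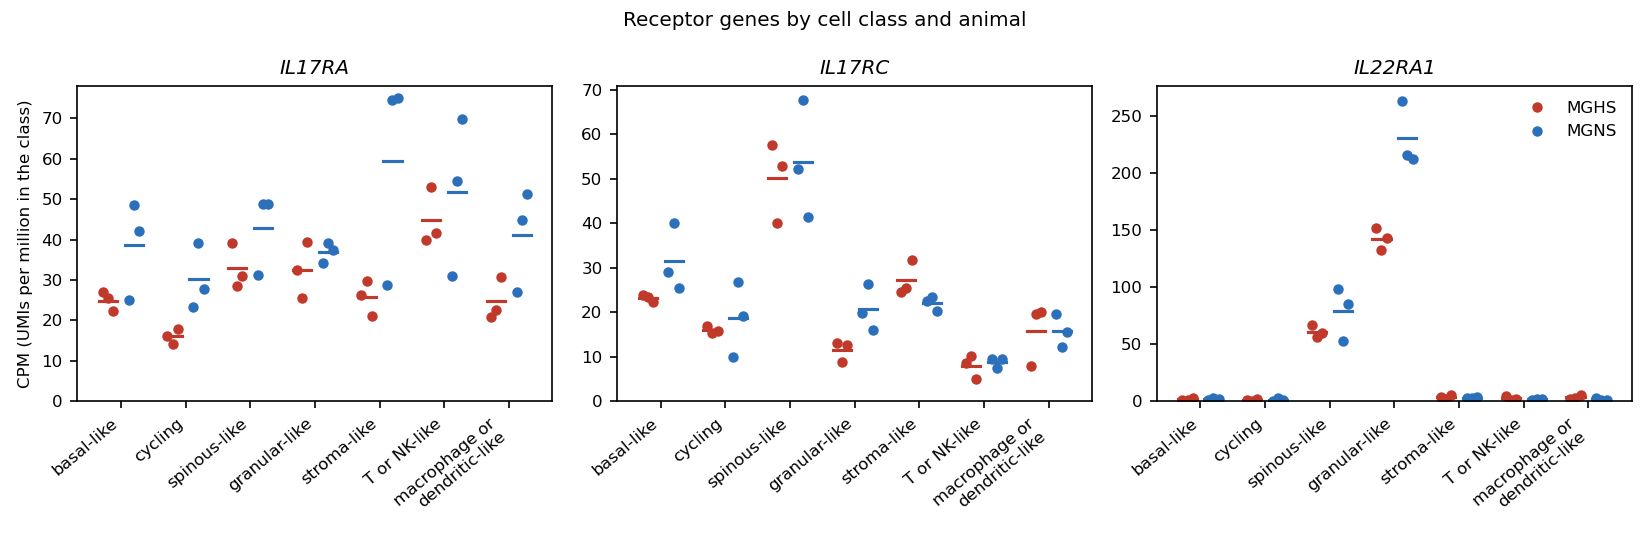
CPM of IL17RA, IL17RC and IL22RA1 (y axes, separate scales from 0) by cell class (x axis), with 1 point per animal, MGHS left and MGNS right, and a bar at each group mean. IL17RA is read in every class shown, IL17RC peaks in spinous-like nuclei, and IL22RA1 is near 0 outside spinous-like and granular-like nuclei.

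Between the groups, no receptor gene passed the test in any class, and several stood lower in MGHS lambs by CPM in some classes. IL22RA1 in granular-like nuclei had 152, 133 and 143 CPM in MGHS lambs, against 263, 216 and 213 CPM in MGNS lambs. All MGHS lambs lay below, as did the groups of 16.1% of the genes tested in this class. Of granular-like nuclei, 62.0%, 51.3% and 60.0% held an IL22RA1 UMI in MGHS lambs, and 74.4%, 75.1% and 66.8% in MGNS lambs. These shares are without thinning, so depth bears on them. How many of all genes stand apart by such shares was not counted.

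The size of this difference depends on scaling. With library totals the log2 fold change of IL22RA1 in granular-like nuclei was -0.69 (edgeR adjusted p = 0.363), and with TMM it was -0.31 ± 0.32 (edgeR adjusted p = 0.668). In that class the median log2 fold change of all genes was 0.002 with TMM and -0.29 with library totals, a shift of -0.29. After TMM scaling IL22RA1 had 194, 185 and 116 CPM in MGHS lambs and 224, 195 and 196 CPM in MGNS lambs, still without overlap, and the groups of 12.1% of genes were likewise below. Without MGHS 3 the TMM log2 fold change was -0.10. The corresponding shift was -0.25 in all keratinocyte-like nuclei, -0.14 in cycling, -0.13 in basal-like and -0.11 in all retained nuclei, and it was within 0.1 in the other classes. In spinous-like nuclei IL22RA1 had 67.2, 56.1 and 59.8 CPM in MGHS lambs and 98.7, 53.1 and 85.7 CPM in MGNS lambs and overlapped. In all keratinocyte-like nuclei its edgeR log2 fold change was 0.13 ± 0.26 (adjusted p = 0.823). Over all retained nuclei it was 0.18 ± 0.22 (edgeR adjusted p = 0.669). Granular-like nuclei were 16.7%, 15.5% and 9.38% of retained nuclei in MGHS lambs and 5.26%, 6.14% and 8.49% in MGNS lambs. The part of these shares in the IL22RA1 values was not tested.

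IL17RC in basal-like nuclei had 23.9, 23.4 and 22.4 CPM in MGHS lambs, against 29.1, 40.1 and 25.5 CPM in MGNS lambs. The MGHS lambs lay below before and after TMM scaling, as did the groups of 17.3% and 11.6% of genes tested in the class. In all keratinocyte-like nuclei the levels were 22.7, 18.4 and 22.95 CPM in MGHS lambs and 30.4, 43.7 and 25.8 CPM in MGNS lambs, apart by CPM, as for 25% of genes, but overlapping after TMM scaling (edgeR log2 fold change -0.38 ± 0.22, adjusted p = 0.396, and -0.17 without MGNS 2). In stroma the order was the other way, with 24.6, 25.5 and 31.8 CPM in MGHS lambs and 22.6, 23.4 and 20.4 CPM in MGNS lambs, where 9.62% of genes had all MGHS lambs above (edgeR log2 fold change 0.31 ± 0.19, adjusted p = 0.496). The change in keratinocyte-like nuclei minus that in stroma was -0.68 ± 0.24 on the log2 scale (edgeR adjusted p = 0.373), in a comparison where edgeR called 0.0232% of genes.

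IL17RA in stroma had 26.4, 29.7 and 21.1 CPM in MGHS lambs, against 28.8, 74.6 and 75.0 CPM in MGNS lambs. MGNS 1 lay among the MGHS lambs, and the other MGNS lambs were far above them (edgeR log2 fold change -1.20 ± 0.36, adjusted p = 0.228). In cycling keratinocyte-like nuclei IL17RA had 16.3, 14.1 and 17.8 CPM in MGHS lambs and 23.4, 39.2 and 27.8 CPM in MGNS lambs, below before and after TMM scaling, as in 15.8% and 10.2% of genes (edgeR log2 fold change -0.73 ± 0.26, adjusted p = 0.254). In granular-like nuclei IL17RA had 32.6, 25.6 and 39.4 CPM in MGHS lambs and 34.2, 39.1 and 37.5 CPM in MGNS lambs and overlapped. The change in keratinocytes less the stromal change was 0.91 ± 0.26 on the log2 scale (edgeR adjusted p = 0.305).

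CCL20, the target gene of the axis and the ligand of CCR6, was read at high levels in the upper keratinocytes, in cluster 4 and in unnamed cluster 16. Over the 6 animals it averaged 338 ± 433 CPM in granular-like nuclei, 240 ± 421 CPM in spinous-like nuclei, 438 ± 255 CPM in cluster 4 and 611 ± 847 CPM in unnamed cluster 16. Stroma averaged 24.4 ± 25.8 CPM and macrophage or dendritic-like nuclei 32.2 ± 23.7 CPM. The SD exceeded the mean in granular-like, spinous-like, cluster 16 and stromal nuclei, and the order of the high classes did not hold beyond the spread. Keratinocytes held 50.6% to 80.5% of the CCL20 UMIs of an animal, and T or NK-like nuclei 6.50% to 32.3%.

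In all keratinocyte-like nuclei CCL20 had 42.5, 28.7 and 46.0 CPM in MGHS lambs, against 304, 55.4 and 587 CPM in MGNS lambs. All MGHS lambs lay below, as for 25% of genes tested there, but MGNS 2 was close to them. The means were 39.1 ± 9.15 CPM in MGHS and 316 ± 266 CPM in MGNS. The edgeR log2 fold change was -2.80 ± 0.77 with an adjusted p of 0.175, so the gene did not pass. After TMM scaling MGHS 1 had 50.3 CPM and MGNS 2 had 49.0 CPM, so the groups touched. Without MGHS 3 the log2 fold change was -2.83, without MGNS 2 it was -3.31 and without MGNS 3 it was -1.92.

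Mean CCL20 was lower in MGHS lambs in each keratinocyte layer, with overlap in some. Granular-like nuclei had 74.9, 53.8 and 30.4 CPM of CCL20 in MGHS lambs, against 939, 80.4 and 851 CPM in MGNS lambs. By CPM all MGHS lambs lay below, as for 16.1% of genes tested in this class. MGNS 1 and MGNS 3 were far above every MGHS lamb, whereas MGNS 2 was near MGHS 1 and stood below it after TMM scaling (edgeR log2 fold change -3.08 ± 0.89, adjusted p = 0.182). Spinous-like nuclei had 15.9, 10.0 and 51.3 CPM in MGHS lambs and 234, 49.3 and 1083 CPM in MGNS lambs, with MGHS 3 just above MGNS 2 (edgeR log2 fold change -4.09 ± 1.20, adjusted p = 0.244). Without MGNS 3 it was -2.33 and without MGHS 3 it was -5.07. In cluster 2 of the basal-like nuclei the levels were 6.38, 0.60 and 7.64 CPM in MGHS lambs and 51.9, 27.0 and 80.0 CPM in MGNS lambs, without overlap, as for 10.6% of genes with at least 10 UMIs there. In cluster 5, the other basal-like cluster, MGHS lambs had 7.95, 33.2 and 101 CPM and MGNS lambs 203, 76.3 and 356 CPM, which overlapped.

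**Figure D3:**
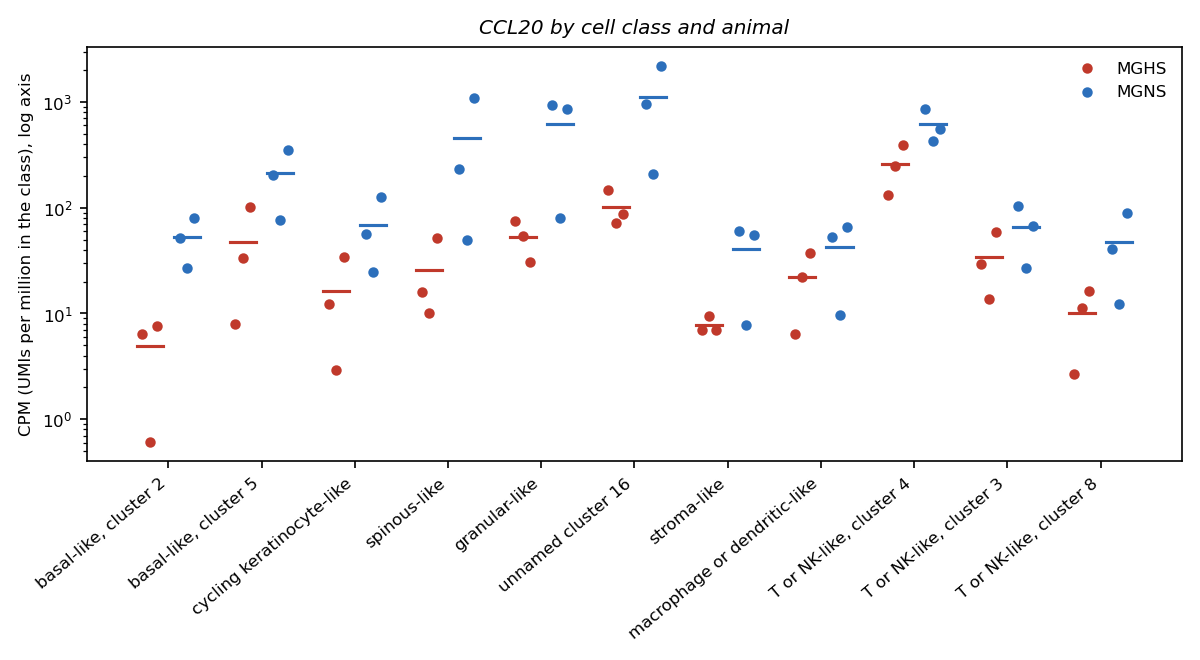
CPM of CCL20 (y axis, log scale) in keratinocyte, stromal, myeloid and lymphocyte classes (x axis), with 1 point per animal, MGHS left and MGNS right, and a bar at the arithmetic mean of each group. MGNS lambs are higher by mean in every class shown, with MGNS 2 the lowest MGNS lamb in each.

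Outside keratinocytes MGNS 1 and MGNS 3 were again the high animals. In stroma CCL20 had 6.99, 9.57 and 7.04 CPM in MGHS lambs, against 60.2, 7.81 and 55.1 CPM in MGNS lambs. MGNS 2 lay among the MGHS lambs, and the edgeR log2 fold change was -2.37 ± 0.65 (adjusted p = 0.211), while without MGNS 2 it was -2.86 (adjusted p = 0.0334). These levels rest on 31 to 42 UMIs per MGHS animal and 29 to 246 per MGNS animal, and stood at 9.38% to 33.3% of the keratinocyte level in the same animal. The 32 measured keratinocyte markers, none at 0 in all animals, stood at 7.51% to 17.8% there, with sums of 1184 to 2945 CPM in MGHS stroma and 1062 to 1800 CPM in MGNS stroma, and their part in the stromal CCL20 was not tested.

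In T or NK-like nuclei CCL20 stood at 47.1% to 462% of the keratinocyte level, while keratinocyte markers there were at 4.98% to 14%, and CCL20 exceeded the marker share in every animal. The levels were 93.3, 133 and 187 CPM in MGHS lambs and 323, 81.2 and 276 CPM in MGNS lambs, which overlapped (edgeR log2 fold change -0.76 ± 0.51, adjusted p = 0.780). It was -0.41 without MGNS 1 and -1.17 without MGNS 2. In cluster 4 MGHS lambs had 132, 246 and 395 CPM and MGNS lambs 862, 431 and 559 CPM, without overlap, as for 5.03% of genes with at least 10 UMIs there. In that cluster 4.47%, 5.15% and 13.5% of nuclei in MGHS lambs held a CCL20 UMI, without thinning, against 25.6%, 14.1% and 25.1% in MGNS lambs. Of the 290 T or NK-like nuclei with IL17A, 81 also held CCL20. In unnamed cluster 16 CCL20 had 146, 71.4 and 86.7 CPM in MGHS lambs and 953, 209 and 2200 CPM in MGNS lambs, again apart, as for 9.86% of genes.

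The share of keratinocyte nuclei that held CCL20 stood apart between the groups in granular-like and spinous-like nuclei, while the amount per positive nucleus overlapped there. How many of all genes stand apart by such shares was not counted. The shares of spinous-like nuclei and of clusters 2 and 5 are given without thinning, so depth bears on them. In granular-like nuclei 5.43%, 4.67% and 6.27% held a UMI in MGHS lambs, against 47.2%, 10.9% and 55.0% in MGNS lambs. After thinning to 1000 UMIs, the shares were 2.62%, 1.76% and 1.47% in MGHS lambs and 29.6%, 4.29% and 29.6% in MGNS lambs, with 50 MGHS and 34 MGNS nuclei left out. Nuclei that held CCL20 averaged 13.8, 9.65 and 4.28 UMIs of it in MGHS lambs and 21.7, 8.48 and 13.8 UMIs in MGNS lambs, so the groups overlapped in the amount per positive nucleus. In basal-like cluster 2 the amounts per positive nucleus nearly touched, with 1.43, 1 and 2.60 UMIs in MGHS lambs and 3.38, 3.73 and 2.65 UMIs in MGNS lambs. They came from 3 to 14 positive nuclei per MGHS animal, with 3 UMIs in all for MGHS 2. The shares stood apart there too, at 0.42% to 3.72% in MGHS lambs and 6.46% to 22.3% in MGNS lambs. In cluster 5 they were 1.98% to 6.94% and 15.3% to 35.5%. The 5% of granular-like nuclei with the most CCL20 held 99.6%, 100% and 95.3% of its UMIs in MGHS lambs, against 39.5%, 91.3% and 39.6% in MGNS lambs. As only 4.67% to 6.27% of these nuclei held any in MGHS lambs, their values follow largely from that share and add little to it. Of spinous-like nuclei, 3.96%, 3.03% and 5.13% held CCL20 in MGHS lambs, against 29.3%, 12.9% and 62.1% in MGNS lambs. Fibroblast-like nuclei, as a class that should hold little of the gene, had it in 5.97% of nuclei at a median of 3737 UMIs. After thinning, their shares were 1.07%, 0.57% and 0.59% in MGHS lambs and 3.38%, 0.26% and 5.67% in MGNS lambs, below the granular-like share of the same animal in each case.

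**Figure D4:**
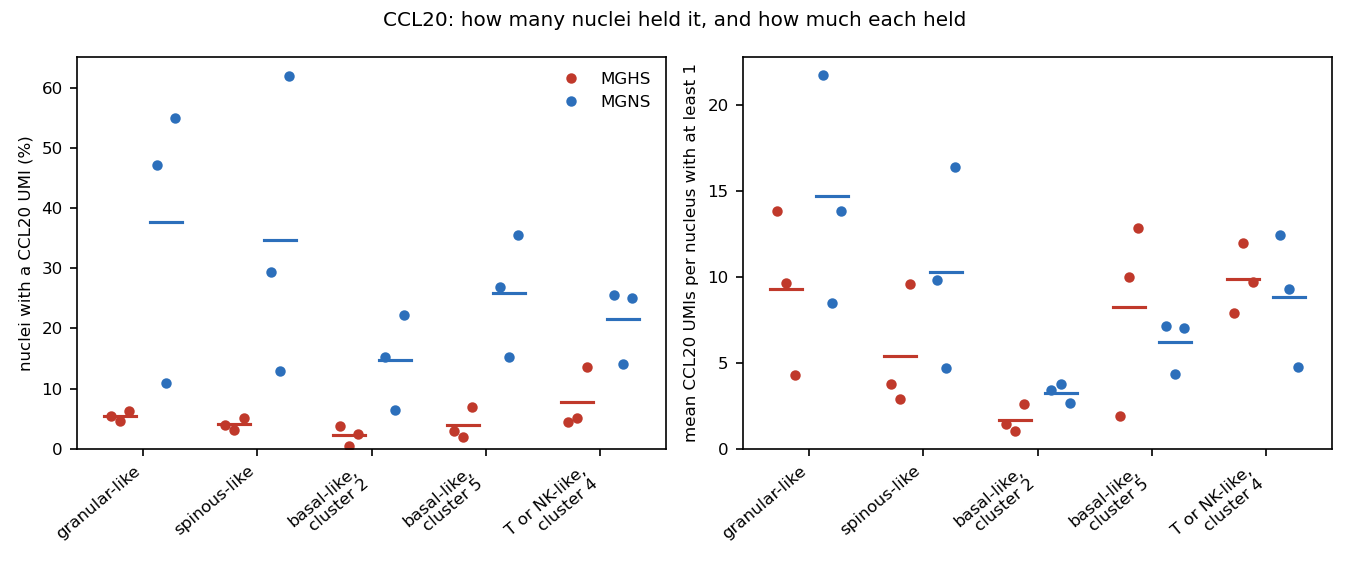
Share of nuclei with at least 1 CCL20 UMI (left panel, percent) and mean CCL20 UMIs per nucleus that held any (right panel) in granular-like, spinous-like, basal-like clusters 2 and 5 and T or NK-like cluster 4 (x axes), 1 point per animal, MGHS left and MGNS right, bars at group means. Shares are without thinning. MGNS 1 and MGNS 3 stand far above all MGHS lambs in the share of granular-like nuclei (47.2% and 55.0%). The amounts per positive nucleus overlap in granular-like nuclei and nearly touch in cluster 2, at 2.60 and 2.65 UMIs.

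The sum of the neutrophil markers was also lower in MGHS keratinocytes, though not each marker was. The summed level of the 9 measured neutrophil markers, none at 0 in all animals, was 1445 to 3857 CPM in MGHS keratinocytes and 4667 to 6203 CPM in MGNS keratinocytes, without overlap. S100A8, which keratinocytes themselves make, is on that list. Macrophage or dendritic markers in keratinocytes were at 0.30% to 0.92% of their level in their own class. The part of these in the CCL20 values was not tested.

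Counting members over the tables, edgeR called 0 of the tested members in any of them. Members tested numbered 8 in T or NK-like, 9 in all keratinocyte-like, 7 in basal-like, 4 in spinous-like, 8 in granular-like, 3 in cycling keratinocyte-like, 6 in stroma, 6 in macrophage or dendritic-like and 9 in all retained nuclei. The shares of all genes that edgeR called were 0.00849%, 0.00612%, 0.00706%, 0.017%, 0.00818%, 0.0581%, 0.00709%, 0% and 0% in the same order, so very few genes passed in these tables at all. At an unadjusted p under 0.05, CCL20 was counted in all keratinocyte-like, spinous-like, granular-like, stromal and all nuclei, IL17RA in cycling, stromal and macrophage or dendritic-like nuclei and IL23R in stroma. IL17RA and IL17RC were also counted for keratinocytes minus stroma. By edgeR that level was reached by 17.4% of all genes in keratinocyte-like, 12.9% in spinous-like, 16.5% in granular-like, 14.1% in cycling, 13.8% in stromal, 6.81% in macrophage or dendritic-like and 19.9% in all nuclei, and by 10.9% for the difference. Counts of 0 members were given by edgeR in T or NK-like and basal-like nuclei at that level too, where 7.74% and 15.6% of all genes reached it.

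DESeq2, an alternative count test, called CCL20 in 5 tables, with adjusted p values of 0.00162 in all keratinocyte-like, 0.00562 in granular-like, 0.0339 in spinous-like, 0.00509 in stromal and 0.00264 in all nuclei. It called no other member in these tables. DESeq2 called 6.28%, 4.61%, 2.81%, 2.71% and 8.08% of all genes in them, and as CCL20 was chosen with earlier results known, these calls are no independent evidence. Limma-voom called no member.

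**Figure D5:**
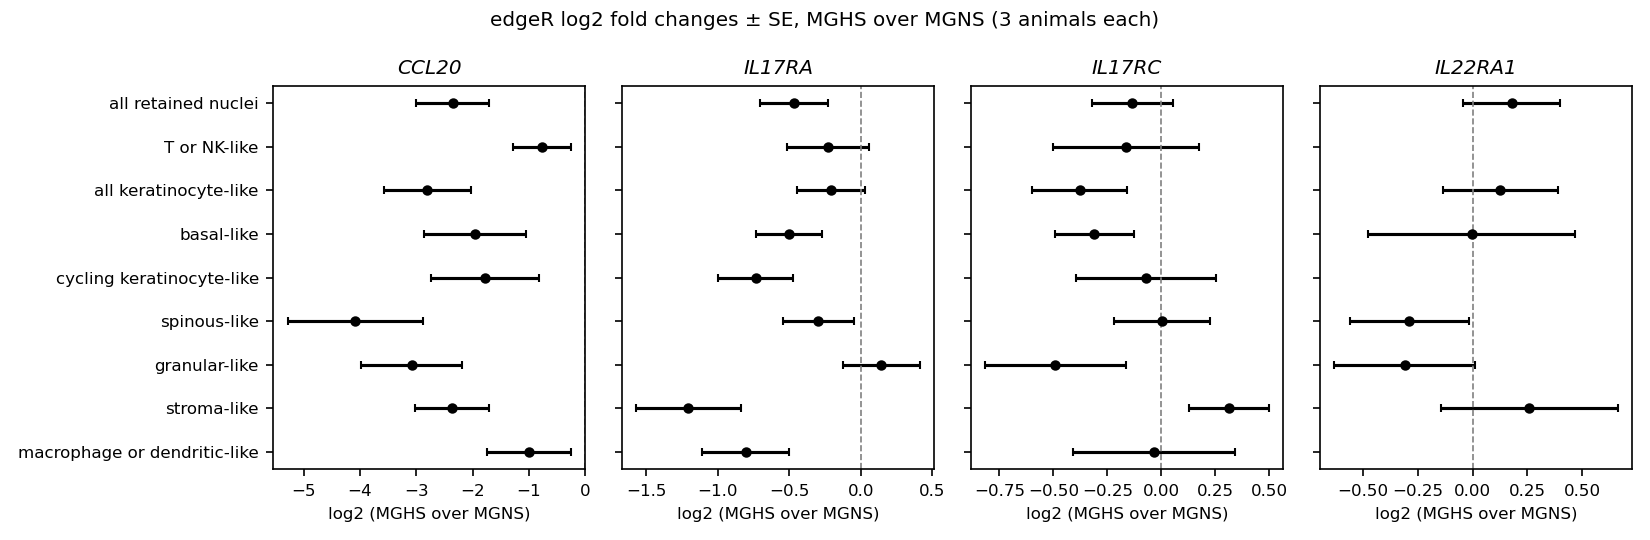
edgeR log2 fold changes of MGHS over MGNS with their standard errors (x axes, separate scales) for CCL20, IL17RA, IL17RC and IL22RA1 in each class where the gene was tested (y axis), from 3 animals per group. The dashed line marks 0, and CCL20 lies below it in each class while none of these values passed the adjusted test.

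The other genes of the pathway were described from lists that were not picked for their direction, although earlier results were known. In all keratinocyte-like nuclei 0 of 28 tested signalling and feedback genes passed edgeR, 10 had an unadjusted p under 0.05, DESeq2 called 6, and 19 of the 28 had a log2 fold change below 0. Over all genes there 17.4% had such a p and DESeq2 called 6.28%. The median of the list was -0.28 against 0.02 over all genes. TNFAIP3, the deubiquitinase that restrains NF-kB, had 7.97, 6.32 and 7.13 CPM in MGHS lambs and 23.9, 24.9 and 37.6 CPM in MGNS lambs (edgeR log2 fold change -1.76 ± 0.27, adjusted p = 0.131). TRAF3IP2, the adaptor Act1 that the IL17 receptor recruits, had 34.8, 27.5 and 45.3 CPM in MGHS lambs and 68.5, 109 and 66.5 CPM in MGNS lambs (edgeR log2 fold change -0.93 ± 0.24, adjusted p = 0.159). Both genes were below in every MGHS lamb, as were 25% of all genes tested in these nuclei. TRAF3, an inhibitor of IL17 receptor signalling, was at -0.74 ± 0.16 and IKBKE, a kinase that acts on Act1, at -1.38 ± 0.30 on the log2 scale.

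Among 25 tested epithelial target genes in the same nuclei, 0 passed edgeR, 14 had an unadjusted p under 0.05, DESeq2 called 6, and 18 lay below 0, with a median of -0.77, beside the same 17.4%, 6.28% and 0.02 over all genes. IL36B, an epithelial IL1-family cytokine, had 24.6, 31.2 and 32.6 CPM in MGHS lambs and 84.9, 75.8 and 149 CPM in MGNS lambs (edgeR log2 fold change -1.58 ± 0.30, adjusted p = 0.138). SERPINB1, an inhibitor of neutrophil elastase, had 22.4, 38.4 and 52.9 CPM in MGHS lambs and 152, 119 and 132 CPM in MGNS lambs. In cycling keratinocyte-like nuclei SERPINB1 was the 1 list gene that passed edgeR in any table, lower in MGHS by 1.35 ± 0.19 on the log2 scale (adjusted p = 0.0423). The edgeR call was lost with doublets kept and without MGHS 1, MGHS 2, MGHS 3 or MGNS 1, at adjusted p values of 0.0666 to 0.148. CFB, complement factor B, was at -2.60 ± 0.63 and MMP9, a matrix protease, at 2.41 ± 0.59, so not all targets had 1 direction. Of the 51 target symbols, 33 were among the symbols matched to the files.

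The regulators of type 17 cells, their inducers and the wider receptor family gave 0 edgeR calls in keratinocytes as well. Of 16 tested source regulators, 5 had an unadjusted p under 0.05, DESeq2 called 3, and 15 lay below 0, with a median of -0.56, again beside 17.4%, 6.28% and 0.02 over all genes. IL7R at -1.25 ± 0.30 and IL21R at -1.49 ± 0.41, both lymphocyte cytokine receptors, led the list, and STAT3, the transcription factor downstream of IL22, was at -0.66 ± 0.21 on the log2 scale. Since most of these genes belong to lymphocytes, the T or NK marker sums given above, lower in MGHS keratinocytes, stand beside them, and their part was not tested. Of 7 inducing cytokines 1 had an unadjusted p under 0.05, DESeq2 called 0 and the median was -0.33. That gene was IL23A, at -1.62 ± 0.66 on the log2 scale (edgeR adjusted p = 0.269). In granular-like nuclei IL23A was at -3.19 ± 0.87 (edgeR adjusted p = 0.170). IL1A, an epithelial alarm cytokine, in granular-like nuclei had 202, 136 and 155 CPM in MGHS lambs and 975, 273 and 1155 CPM in MGNS lambs. The groups did not overlap, as for 16.1% of genes tested in that class, and IL1A did not pass (edgeR adjusted p = 0.183). DESeq2 called IL23A (adjusted p = 0.0214) and IL1A (adjusted p = 0.0297) in that class, where it called 4.61% of genes. Of 15 other family genes 2 had an unadjusted p under 0.05, DESeq2 called 0 and the median was -0.14.

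In stroma the signalling list had 0 edgeR calls among 29 genes, 13 at an unadjusted p under 0.05 and 6 by DESeq2, and 27 of the 29 lay below 0, with a median of -0.44 against 0.03 over all genes. Over all stromal genes 13.8% had such a p and DESeq2 called 2.71%. NFKB1, a subunit of NF-kB, had 236, 234 and 213 CPM in MGHS lambs and 462, 445 and 551 CPM in MGNS lambs (edgeR log2 fold change -1.08 ± 0.16, adjusted p = 0.0891). STAT3 had 173, 163 and 187 CPM in MGHS lambs and 314, 339 and 350 CPM in MGNS lambs (edgeR log2 fold change -0.93 ± 0.14, adjusted p = 0.0891). For both genes all MGHS lambs lay below, as for 11.1% of genes tested in stroma, and neither passed edgeR. C3, a complement component that IL17 and IL22 can raise, had 162, 107 and 120 CPM in MGHS lambs and 416, 364 and 404 CPM in MGNS lambs (edgeR log2 fold change -1.59 ± 0.20, adjusted p = 0.0562). IL1R1 was at -1.16 ± 0.16 and BATF at -1.59 ± 0.26 on the log2 scale, and neither passed.

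In T or NK-like nuclei, source regulators had a median of -0.09 over 16 genes, signalling genes -0.16 over 29 and epithelial targets -0.16 over 22, against 0.01 over all genes, and edgeR called 0 of each. Unadjusted p under 0.05 was reached by 3, 2 and 4 of them, and DESeq2 called 0, 0 and 2, where 7.74% of all genes had such a p and DESeq2 called 0.968%. IL1R1 was at 1.03 ± 0.43, AHR at 0.42 ± 0.19, IL21R at -0.75 ± 0.19 and STAT3 at -0.50 ± 0.16 on the log2 scale. TNFAIP3 had 82.7, 61.7 and 62.1 CPM in MGHS lambs and 90.0, 123 and 167 CPM in MGNS lambs (edgeR log2 fold change -0.91 ± 0.24, adjusted p = 0.330), with every MGHS lamb below, as for 5.25% of genes.

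The genes whose mean levels followed the members over the 24 clusters were ranked by Pearson's r of log2(CPM + 1), as a description in which all points share the same 6 libraries. IL17A was closest to IL22 (r = 0.898), IL17F (0.898), IL26 (0.831), TCP10L (0.821) and DLGAP2 (0.766). IL22RA1 was closest to WNT7A (0.967), SDCBP2 (0.964), ATP6V1C2 (0.963), ERO1A (0.958) and ABCA12 (0.952). CCL20 had no such close companion, with ANXA1 (0.777), ACLY (0.765), RAB19 (0.757), SDR16C5 (0.746) and ATP6V1G1 (0.742) first. IL22 was closest to IL17A (0.898), IL17F (0.869), DLGAP2 (0.811), IL26 (0.804) and HECW1 (0.791).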

How the data were processed

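Single-nucleus RNA of rumen epithelium was measured with 10x Genomics droplets in 6 lambs, 3 per group, and the animal is the replicate. The deposited matrices hold UMI counts per gene and barcode, whole and not normalized, made with Cell Ranger, version 8.0.0 per the file headers and 2.1.1 per the submitters' processing notes. Which version made them stayed unresolved. Annotation, genome build and the choice of barcodes were not given in the sources used here. The files hold 67553 barcodes and 268011559 UMIs over 26741 genes, whose NCBI IDs were matched to RefSeq symbols.

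Nuclei with under 300 genes or over 10% mitochondrial UMIs, and the top 0.5% by UMIs, were removed, as were 3661 nuclei scored as doublets, with a rate fixed by library size where the caller found too few. The remaining 41822 nuclei were clustered with Scanpy 1.11.5 and igraph 0.11.9 (Python 3.11.15) from 2000 variable genes, 30 components and neighbours balanced over libraries, at resolution 0.8. Of the members, 6 were variable genes. Clusters were named only from marker lists.

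UMI counts were summed per animal and class and tested with edgeR 4.0.16 (R 4.3.3) quasi-likelihood tests on all genes passing filterByExpr at a minimum of 10 counts, with TMM factors. P-values were adjusted by Benjamini-Hochberg over all genes tested, with a threshold of 0.05. Alternatives were DESeq2 1.42.0, voom in limma 3.58.1, RLE size factors, no low-count filter, 500 genes per nucleus, doublets kept, clustering without the members, a replicate block, thinning to 1000 UMIs and leaving out each animal. Library totals in place of TMM and TMM-scaled levels were added after seeing the data. The tests were checked on simulated counts. The labels state no pairing of animals by replicate number, so the block was an alternative only.

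The members and all gene lists were chosen with earlier results of these data known. Shares of genes in single clusters use genes with at least 10 UMIs. The text names the 9 members, and from each list the genes past the threshold or else up to 4 with the smallest p in all, T or NK-like, keratinocyte-like or stromal nuclei. IL1A and IL23A in granular-like nuclei, IL10RB, IL22RA2, IL17C, IL17RE, IL36G, S100A8, S100A9, CCR6, CD4 and CD8A were named beyond that rule after their values were seen.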

Additional observations from a re-analysis of the deposited data

How the results depend on the processing

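Over all 69 tested pairs of a member and a table, 41 log2 fold changes kept their direction in every alternative and 28 turned in at least 1, in 65 of 1020 refits. Among the fold changes printed with a test, IL17F in T or NK-like nuclei turned without MGHS 3 (leave-one-out values -0.12 to 0.62). IL23R there turned with doublets kept (-0.044), with unnamed T or NK-marked clusters added (-0.056) and without single animals (-0.24 to 0.30). In 7 refits a CCL20 change passed the threshold that it missed in edgeR. These were the 5 DESeq2 tests, stroma without MGNS 2 and cycling keratinocyte-like nuclei under the replicate block (-2.06, adjusted p = 0.000931). Of the list genes, C3 in stroma also passed edgeR with doublets kept, with library totals, without the low-count filter and after clustering without the members (adjusted p = 0.00447 to 0.0499). Counts of called genes moved far more. DESeq2 called 1433 genes in all nuclei, 114 in T or NK-like, 984 in keratinocyte-like, 437 in basal-like, 311 in spinous-like, 529 in granular-like, 197 in cycling, 382 in stromal and 57 in macrophage or dendritic-like nuclei, and 271 for the keratinocyte and stroma difference, where edgeR called 0, 1, 1, 1, 2, 1, 6, 1, 0 and 4. Limma-voom called 304 in all, 12 in keratinocyte-like, 60 in basal-like, 28 in spinous-like, 0 in granular-like, 27 in cycling and 47 in stromal nuclei. Without the low-count filter the counts were 22 in all, 143 in T or NK-like, 13 in keratinocyte-like, 69 in basal-like, 190 in spinous-like, 96 in granular-like, 565 in cycling, 80 in stromal and 12 in macrophage or dendritic-like nuclei, and 7 for the difference. With doublets kept they were 12 in all, 3 in T or NK-like, 0 in keratinocyte-like, 0 in granular-like, 1 in cycling and 11 in stromal nuclei, and 1 for the difference. Library totals in place of TMM gave 6 in keratinocyte-like, 3 in basal-like, 40 in granular-like, 50 in cycling and 11 in stromal nuclei. Clustering without the members gave 4 in basal-like, 12 in cycling and 13 in stromal nuclei, and RLE factors gave 0 in granular-like nuclei. Leaving out 1 animal gave 0 to 5 in T or NK-like, 0 to 173 in keratinocyte-like, 0 to 52 in all, 0 to 8 in basal-like, 0 to 123 in cycling, 0 to 101 in granular-like, 0 to 1 in macrophage or dendritic-like, 0 to 9 in spinous-like and 0 to 8 in stromal nuclei, and 0 to 130 for the difference. The labels state no pairing of animals by replicate number. Deviations of same-numbered animals correlated at -0.13 to 0.13 over 9 tables and those of other pairs at -0.21 to 0.22. With 3 animals per group, whose deviations depend on each other, these correlations cannot decide on pairing. The replicate block gave 0 calls in keratinocyte-like, 13 in basal-like, 6 in spinous-like and 161 in cycling nuclei. The cause of these moves was not tested. The cytokine levels rest on as few as 61 UMIs per animal, and 3 animals per group limit every comparison.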

Other observations

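IL17C, a family member that epithelium itself makes, was read in upper keratinocytes. In granular-like nuclei IL17C had 0.22, 0.36 and 11.6 CPM in MGHS lambs, against 21.3, 9.30 and 32.2 CPM in MGNS lambs. MGHS 3 lay among the MGNS lambs and the other MGHS lambs near 0. IL17RE, the receptor chain that IL17C binds, averaged 1.00 ± 0.30 CPM in all keratinocyte-like nuclei and 2.73 ± 1.48 CPM in T or NK-like nuclei over the 6 animals. IL36G, an epithelial IL1-family cytokine, had 17.1, 14.8 and 67.5 CPM in granular-like nuclei of MGHS lambs. It had 189, 136 and 152 CPM in those of MGNS lambs. The groups did not overlap, as for 16.1% of genes tested there, and IL36G did not pass (edgeR adjusted p = 0.146).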
